A study of Mus musculus with 2 samples.

Results

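Splicing factor genes were examined for Etv4 and Etv5 ChIP-seq regions in EpRas cells. The genes are every protein-coding gene of the GENCODE mouse annotation (GRCm38, the assembly also called mm10) with a symbol that starts with Srsf, Hnrnp, Sf3a, Sf3b, Snrp, U2af or Prpf. This gave 68 of 21938 nuclear protein-coding genes: 11 Srsf, 20 Hnrnp, 3 Sf3a, 6 Sf3b, 12 Snrp, 3 U2af and 13 Prpf genes. EpRas is a line of mouse mammary gland epithelial cells, made from EpH4 cells by transformation with an activated H-Ras. Before fixation the cells, kept in 4% serum, received TGF-β3 at 1 ng/ml during 1.5 h for both libraries, which differed in the antibody, a rabbit polyclonal against Etv4 and a mouse monoclonal against Etv5. Each antibody had 1 library, and the region lists give positions with no read counts, so the depth behind them is unknown and no difference between Etv4 and Etv5 could be tested. The regions were called without an input library, and untreated cells, EpH4 cells and a second line were not analysed here.

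Most mammalian genes carry introns, which the spliceosome removes from the primary transcript. The Snrp, Sf3a, Sf3b, U2af and Prpf genes encode parts of this machine and its assembly factors, whereas SR proteins (Srsf) and hnRNP proteins (Hnrnp) bind the transcript and decide which exons are kept, by rules that change in epithelial-mesenchymal transition. Etv4 and Etv5 belong to the PEA3 group of ETS transcription factors, which act downstream of Ras signaling and bind DNA around a GGAA core.

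Below, a start region is a region whose midpoint lay within 2 kb of an annotated transcript start of the gene, and a body region is one with its midpoint inside the gene but farther than 2 kb from each of its starts. Distances are signed along the gene, negative upstream of the start. The region number is the number that each region carries in the deposited list, and it is given as a percent of the list where lists are compared. All intervals are exact 95% Clopper-Pearson intervals, which cover counting error only and treat genes or regions as independent.

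The sequences below carry the ETS octamers CCGGAAGT or CAGGAAGT at start regions of splicing factor genes, and they are shown because they are the closest matches to a PEA3-type site beside the called regions. Of 45 Etv4 start regions, 11 held such an octamer, in either direction, in the 500 bp centred on the midpoint, and the 10 with the lowest region numbers are printed, in that order. Each line runs 5′ to 3′ on the strand of the gene with the octamer in capitals, so that CCGGAAGT lies in the sense direction and ACTTCCGG or ACTTCCTG in the antisense direction. Sequences near an untranslated region are cut to 30 bases. Positions are those of GRCm38.
Sf3b2, chr19:5295450-5295479, minus strand: ggattacgcaaCCGGAAGTttctggaagta
Snrpe, chr1:133610256-133610285, minus strand: gggtcttgcttCCGGAAGTcgctttccgag
Sf3b4, chr3:96172492-96172521, plus strand: tgagccttggcCCGGAAGTggaagttgtaa
Hnrnpu, chr1:178336518-178336617, minus strand: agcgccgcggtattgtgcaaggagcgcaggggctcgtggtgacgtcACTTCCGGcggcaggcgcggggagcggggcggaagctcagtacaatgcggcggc
Srsf5, chr12:80945362-80945461, plus strand: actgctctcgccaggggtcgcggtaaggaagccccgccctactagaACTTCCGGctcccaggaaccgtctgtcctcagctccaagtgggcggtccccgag
Srsf5, a further octamer of the same region, chr12:80945465-80945494, plus strand: ctggcaccgccCCGGAAGTgacgccaggac
Prpf19, chr19:10895362-10895391, plus strand: gcggcgggggaCCGGAAGTggcccgcggag
Sf3a3, chr4:124714759-124714788, plus strand: tcccccaagacACTTCCGGgacacgcggaa
Sf3a1, chr11:4160336-4160365, plus strand: agagggcgggaCCGGAAGTgctcccgcggc
Hnrnpf, chr6:117917729-117917828, plus strand: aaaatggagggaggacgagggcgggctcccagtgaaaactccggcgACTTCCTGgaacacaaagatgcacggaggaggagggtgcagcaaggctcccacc
Snrpd3, chr10:75517775-75517804, plus strand: gtccaagcctcACTTCCTGtctccccagag

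The distance of these octamers from annotated starts was measured. Of the 11 Etv4 regions with an octamer, 8 had it within 50 bp of an annotated protein-coding start (72.7%, interval 39.0 to 94), against 303 of 586 such regions over all protein-coding genes (51.7%), a value inside that interval. In Sf3a1, which encodes a subunit of the U2 particle, the octamer lay at the start itself, in Sf3a3 at -3 bp and in Prpf19 at 3 bp. The octamer of Sf3a1 was outside the called region, which began just downstream of it.

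Etv4 start regions were found at 36 of the 68 splicing factor genes, 52.9% (interval 40.4 to 65.2), beside 17.9% of all protein-coding genes. Etv5 start regions were found at 12 genes, 17.6% (interval 9.47 to 28.8), beside 10.6% of all protein-coding genes, a value inside that interval. Both factors had a start region at 7 genes (10.3%, interval 4.24 to 20.1), beside 6.46% of all genes. Etv4 alone was found at 29 genes (42.6%, against 11.4%) and Etv5 alone at 5 genes (7.35%, against 4.12%). Any start region was found at 41 genes (60.3%, interval 47.7 to 72, against 22.0%), and at 27 genes neither factor had a start region.

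**Figure D1:**
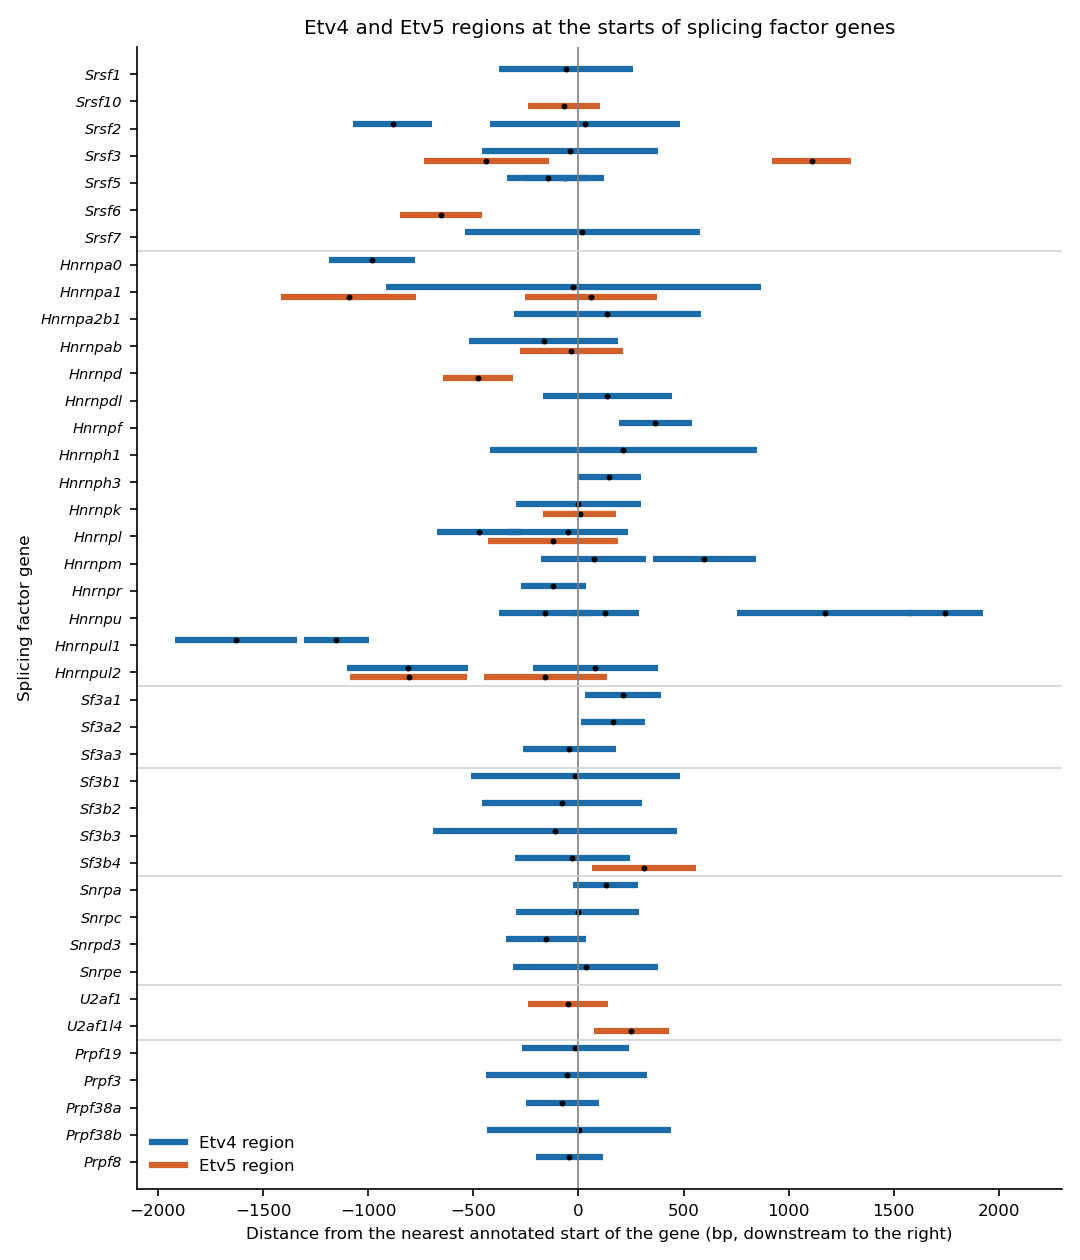
Horizontal bars give the Etv4 (blue) and Etv5 (orange) start regions of the 41 splicing factor genes that had any, with the midpoint as a black dot, against the distance in bp from the nearest annotated start of the gene; each region is placed by its own nearest start, so bars of genes with several starts may overlap here but not in the genome. Of 45 Etv4 regions 33 cover that start, against 7 of 15 Etv5 regions, and genes are ordered by family.

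Of the 36 splicing factor genes with an Etv4 start region, 7 also had an Etv5 start region (19.4%, interval 8.19 to 36), beside 36.1% of all genes with Etv4. In the other direction, 7 of 12 genes with Etv5 also had Etv4 (58.3%, interval 27.7 to 84.8), beside 61.1%. The ratio of genes with Etv4 to genes with Etv5 was 3.0 for splicing factor genes and 1.69 for all genes. The Etv4 list was longer than the Etv5 list, with 13636 and 8297 regions. With the Etv4 list cut to the number of regions of the Etv5 list, 22 of the 68 genes (by region length) or 21 (by region number) had an Etv4 start region, beside 12 with Etv5. The ratio was then 1.83 or 1.75 for splicing factor genes and 1.02 or 1.04 for all genes.

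The Hnrnp family had the most genes with a start region. Etv4 was found at 15 of 20 (75%, interval 50.9 to 91.3) and Etv5 at 6 (30.0%, interval 11.9 to 54.3), beside 17.9% and 10.6% of all genes. These proteins coat nascent transcripts, and Hnrnpa1, which silences exons, is the best studied. Its Etv4 start region, chr15:103239517-103241298 on GRCm38, was 1782 bp long, covered the start and had region number 3027. The Etv5 list had regions at 61 bp and at -1093 bp from starts of Hnrnpa1, with region numbers 1274 and 1515, the lowest numbers of any Etv5 start region of these genes. Both overlapped the Etv4 region, and the start of Cbx5, on the opposite strand, was the nearest start for the upstream region.

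The remaining Hnrnp genes with both factors were Hnrnpab, Hnrnpk, Hnrnpl and Hnrnpul2. Hnrnpk, which binds C-rich RNA and DNA, had the closest midpoints of any gene with 1 region in each list, 29 bp apart, with the Etv5 region of 349 bp lying wholly inside the Etv4 region. Hnrnpab had an Etv4 region at -164 bp and an Etv5 region at -34 bp that shared 469 bp. Hnrnpl, which binds CA repeats, had Etv4 midpoints at -51 and -472 bp from different starts, and its Etv5 region shared 158 bp with the Etv4 region that had the high region number of 10398. Hnrnpul2 had 2 regions in each list, and the upstream pair had midpoints 5 bp apart and lay nearer to the start of Ttc9c on the opposite strand. An ETS octamer, CAGGAAGT, lay in the downstream Etv5 region of Hnrnpul2, at -235 bp, and this was the single Etv5 start region of 15 with an octamer (6.67%, interval 0.169 to 31.9, beside 10.7% of all Etv5 start regions).

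Hnrnpd, whose product (also called Auf1) binds AU-rich elements of short-lived mRNAs, was the single Hnrnp gene with Etv5 alone, and its Etv5 region was nearer to the start of the opposite-strand gene 4930524J08Rik. Hnrnph1, which binds G-rich runs, and Hnrnpa2b1 had Etv4 alone, with region numbers 1905 and 2884. Hnrnpu, a nuclear matrix protein also called scaffold attachment factor A, had 4 Etv4 start regions, the most of any splicing factor gene, and no Etv5 region. Of these, 1 held an octamer, at -162 bp from an annotated start, where it shared its end base with a CRE motif (TGACGTCA). The other 3 held none, and 2 of them had midpoints 14799 and 10133 bp downstream of the outermost start of Hnrnpu, near starts of shorter annotated transcripts. The Etv4 start region of Hnrnpf, a G-run binder related to Hnrnph1, likewise lay 17344 bp downstream of the outermost start, beside an internal start. Hnrnpa0, Hnrnpdl, Hnrnph3, Hnrnpm, Hnrnpr and Hnrnpul1 also had Etv4 alone, with region numbers from 6407 to 13489. Hnrnpa3, Hnrnpc, Hnrnph2 and Hnrnpll had no start region.

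SR proteins bind exonic enhancers and recruit the spliceosome. Of 11 Srsf genes, Etv4 was found at 5 (45.5%, interval 16.7 to 76.6) and Etv5 at 3 (27.3%, interval 6.02 to 61.0), and the shares of all genes, 17.9% and 10.6%, lay inside these intervals. Srsf3, the smallest of the SR proteins, was the gene with both. Its Etv4 region, chr17:29032171-29033009, had region number 1010 and its midpoint at -39 bp, and the overlapping Etv5 region lay farther upstream, at -438 bp, where the pair shared 319 bp. A further Etv5 region lay 8175 bp downstream of the outermost start of Srsf3, beside an internal transcript start. Srsf7 and Srsf2 had Etv4 alone, with region numbers 525 and 831, and their Etv4 regions also lay within 2 kb of the starts of Ttc39d and Mfsd11. Srsf5 had 2 Etv4 regions, the upstream of which held both printed octamers, and 11.4% of the 36-base sequences of this region occur more than once in the genome, the highest share of any Etv4 start region of these genes. Srsf6 and Srsf10 had Etv5 alone, at -653 and -69 bp. Srsf1 had Etv4 alone, and Srsf4, Srsf9, Srsf11 and Srsf12 had no start region.

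The Sf3a and Sf3b genes encode the parts of the U2 particle that hold the branch point. All 3 Sf3a genes and 4 of 6 Sf3b genes had an Etv4 start region (interval 29.2 to 100 and 22.3 to 95.7), and Etv5 was found at none of the Sf3a genes (upper bound 70.8%) and at Sf3b4. The shares of all genes, 17.9% for Etv4 and 10.6% for Etv5, lay below the Etv4 intervals and inside the Etv5 intervals. The lowest-numbered Etv4 start region of all splicing factor genes was that of Sf3b3, chr8:110846320-110847478, number 275 of 13636, with its midpoint at -111 bp and the start of Cog4 also within 2 kb. Sf3b1, which contacts the branch point helix and is mutated in several cancers, had number 1181 and its midpoint at -14 bp. Sf3b2 had number 2744 and the printed octamer at -9 bp. In Sf3b4, the octamer lay in the Etv4 region at -41 bp, and the Etv5 region, at 312 bp, shared 180 bp with it. The 3 Sf3a regions were short and late in the list, with lengths of 301 to 444 bp and region numbers from 11141 to 13532, and for Sf3a2 the nearest start was that of the opposite-strand gene Plekhj1. Sf3b5 and Sf3b6 had no start region.

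The core particles were represented by 12 Snrp genes, which encode Sm ring proteins and proteins of the U1 and U2 particles. Etv4 was found at Snrpa, Snrpc, Snrpd3 and Snrpe (33.3%, interval 9.92 to 65.1) and Etv5 at none (upper bound 26.5%). The shares of all genes, 17.9% and 10.6%, lay inside these intervals. For Snrpa and Snrpd3 the nearest start belonged to the opposite-strand genes BC024978 and Gucd1. Snrpe, a Sm ring protein, had the lowest region number of the family, 4126, and its octamer at -21 bp from a start. Snrpa1, Snrpb, Snrpb2, Snrpd1, Snrpd2, Snrpf, Snrpg and Snrpn had no start region.

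The Prpf family, named after yeast genes that process precursor RNA, had Etv4 at 5 of 13 genes (38.5%, interval 13.9 to 68.4): Prpf3, Prpf8, Prpf19, Prpf38a and Prpf38b. Etv5 was found at none of the starts (upper bound 24.7%). Here too the shares of all genes, 17.9% and 10.6%, lay inside the intervals. Prpf8 forms the core of the U5 particle, and its Etv4 region, of 316 bp and number 13058, held the octamer CAGGAAGT in the antisense direction at -10 bp. Prpf19 is the ubiquitin ligase of the Prp19 complex. Among the genes with no start region were Prpf4, Prpf4b, Prpf6, Prpf18, Prpf31, Prpf39 and Prpf40b.

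The U2af genes showed the reverse order. Of these 3 genes, Etv4 was found at none (upper bound 70.8%), and Etv5 at U2af1, whose product reads the AG at the end of the intron, and at its paralog U2af1l4. The Etv5 region of U2af1, chr17:31658753-31659130, covered the start with its midpoint at -49 bp. That of U2af1l4 lay among the starts of Psenen, Igflr1 and Gm49396. U2af2, the large subunit, had no start region. With 3 genes the intervals of the 2 factors overlapped, at 0 to 70.8% and 9.43 to 99.2%, and both held the shares of all genes, 17.9% and 10.6%.

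**Figure D2:**
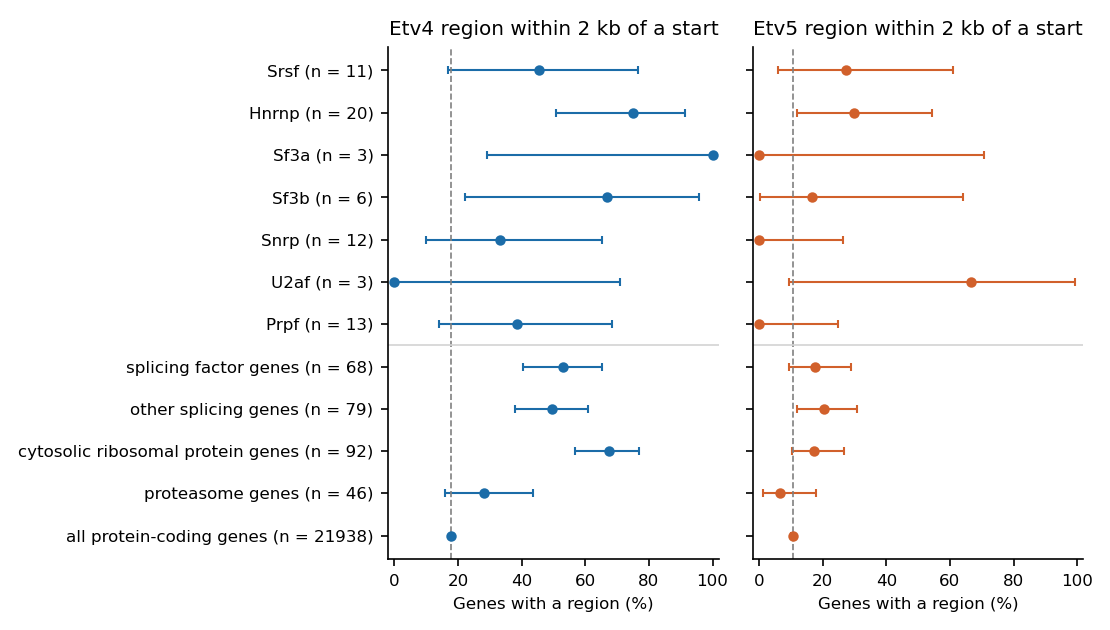
Points give the percent of genes with an Etv4 (left) or Etv5 (right) start region for each family and gene class, bars give exact 95% intervals, and the dashed lines mark all protein-coding genes, at 17.9% and 10.6%. The Etv4 interval of the 68 splicing factor genes, 40.4 to 65.2%, lies to the right of its line, whereas the Etv5 interval, 9.47 to 28.8%, spans its line.

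Where both factors had a start region, the regions overlapped at each of the 7 genes, in 9 pairs (10.3% of the 68 genes, beside 5.60% of all genes). Over all genes with both factors, 1229 of 1417 had an overlapping pair (86.7%), a value inside the interval of the 7 genes (59.0 to 100). A pair that shared at least 50% of both regions was found at 3 of the 7 genes, Hnrnpab, Hnrnpk and Hnrnpul2 (42.9%, interval 9.90 to 81.6), beside 811 of 1417 (57.2%). In the remaining 4 genes the midpoints of the closest pair were 148 bp (Hnrnpa1), 341 bp (Sf3b4), 351 bp (Hnrnpl) and 399 bp (Srsf3) apart. Seen over regions, 8 of 45 Etv4 start regions of splicing factor genes overlapped an Etv5 region (17.8%, interval 8 to 32.1), beside 28.3% of all Etv4 start regions. For Etv5 the count was 9 of 15 (60%, interval 32.3 to 83.7), beside 53.4%.

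Body regions were few. Etv4 had a body region at 5 of 68 genes (7.35%, interval 2.43 to 16.3), beside 10.1% of all genes, and Etv5 at 2 (2.94%, interval 0.358 to 10.2), beside 7.39%. Splicing factor genes were shorter, with a median length of 14.0 kb against 17.4 kb for all genes. By length, an Etv4 body region was found at 2 of 39 splicing factor genes of 5 to 20 kb (5.13%, interval 0.627 to 17.3, all genes 3.47%) and at 3 of 21 genes of 20 to 50 kb (14.3%, interval 3.05 to 36.3, all genes 9.69%). Without regions of mostly repeated sequence, a setting added here after seeing the data, 1 of 39 genes remained in the shorter class (2.56%, all genes 3.42%), so the order in that class turns on the region of Hnrnpa3 described next. None of the 3 genes of 50 kb or more had an Etv4 body region (upper bound 70.8%, all genes 28.3%), and in each length class the Etv4 share of all genes lay inside the interval. For Etv5 none of the genes of 5 to 20 kb (upper bound 9.03%, all genes 1.65%) or of 20 to 50 kb (upper bound 16.1%, all genes 6.50%) had a body region. The 2 genes with an Etv5 body region were 1 of 5 genes under 5 kb (20%, interval 0.505 to 71.6, all genes 0.193%) and 1 of 3 genes of 50 kb or more (33.3%, interval 0.840 to 90.6, all genes 23%). Sf3b1, Sf3b3 and Hnrnpa1 had an Etv4 body region as well as a start region. Hnrnpa3 and Prpf4b, a kinase of the spliceosome, had an Etv4 body region alone, and 82.2% of the 36-base sequences of the Hnrnpa3 region, in an exon, occur more than once in the genome. Etv5 had a body region in an intron of Prpf6, a U5 protein, with an octamer (CAGGAAGT) and 33.1% of such repeated sequences, and in an exon of Sf3b5.

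The 10 lowest-numbered Etv4 start regions belonged to Sf3b3, Srsf7, Srsf2, Srsf3, Sf3b1, Hnrnpab, Hnrnph1, Sf3b2, Hnrnpa2b1 and Hnrnpa1, with numbers from 275 to 3027, and for each of them the splicing factor gene had the nearest start. None came from a Snrp, Prpf or Sf3a gene. Over all 45 regions the median lay at 60.5% of the list (quartiles 30.3 and 85.1), beside 54.3% for all Etv4 start regions. The 10 lowest-numbered Etv5 start regions belonged to Hnrnpa1 (with 2), Hnrnpul2, Hnrnpl, Hnrnpab, Srsf3 (with 2), U2af1, Sf3b4 and Srsf6, with numbers from 1274 to 5227 of 8297. For 6 Etv4 and 3 Etv5 start regions another gene had the nearest start, and 17 Etv4 and 7 Etv5 start regions had the start of another protein-coding gene within 2 kb.

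**Figure D3:**
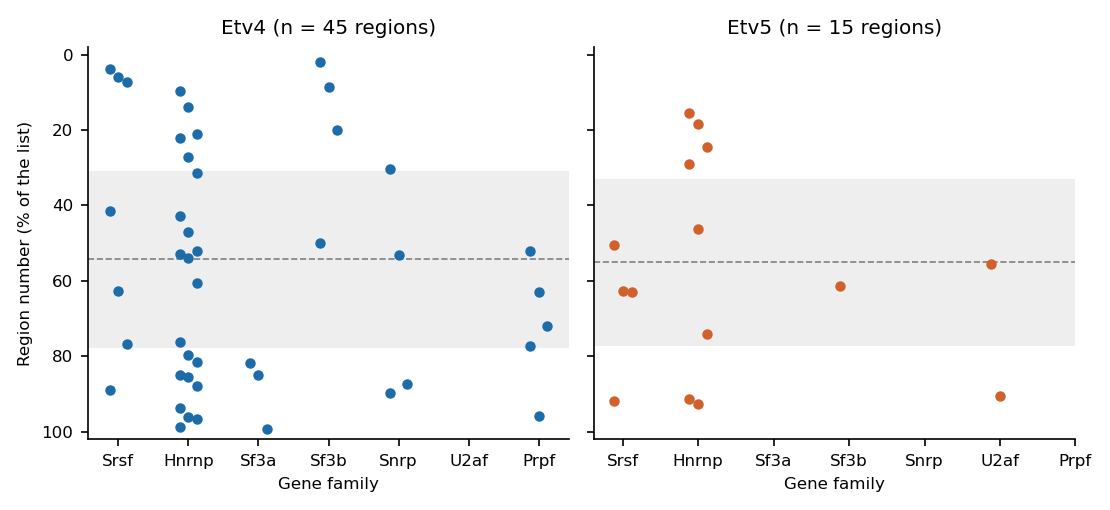
Each point is a start region of a splicing factor gene, placed by its region number as a percent of the Etv4 (left) or Etv5 (right) list, with the lowest numbers at the top and families along the horizontal axis; the dashed line and grey band give the median and quartiles of all start regions. The 10 lowest Etv4 numbers belong to Srsf, Hnrnp and Sf3b genes, whereas the 3 Sf3a regions all lie past 80%.

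ETS octamers were counted in Etv4 start regions with other short patterns for comparison. In 500 bp around the midpoint, 24.4% of the 45 regions of splicing factor genes held CCGGAAGT or CAGGAAGT (interval 12.9 to 39.5), beside 14.2% of all 4130 Etv4 start regions. In 200 bp the values were 20% (interval 9.58 to 34.6) and 6.85%. The hexamer CGGAAG, which the CCGGAAGT octamer contains, was found in 53.3% (interval 37.9 to 68.3), beside 37.3%. The AP-1 motif TGACTCA was found in 3 windows of 500 bp, those of Hnrnpa1, Snrpc and Srsf2 (6.67%, interval 1.40 to 18.3), beside 16.5%. In Srsf2 it lay outside the called region. The RUNX letters TGTGGTT or TGTGGTC were found in 11.1%, beside 15.7%, and the CRE letters TGACGTCA in 2.22%, beside 3.61%. In 200 bp the order was the opposite, with RUNX at 8.89% (interval 2.48 to 21.2) beside 7.17% and CRE at 2.22% (interval 0.0562 to 11.8) beside 1.67%. AP-1 was found in none of the 45 regions in 200 bp (upper bound 7.87%), beside 9.35%. The octamers written backwards, TGAAGGCC or TGAAGGAC, which have the same composition but no ETS core in that order, were found in none (upper bound 7.87%), beside 3.87%. Unlike CCGGAAGT, the reversed octamers hold no CpG, so they are no control for the CpG content of the regions. All patterns were searched on both strands. The 2 sets of regions also differed in place. Midpoints of the 45 regions lay a median of 119 bp from a start (upper quartile 212), beside 160 bp (512) for all Etv4 start regions. Over all Etv4 start regions with an ETS octamer, the octamer lay a median of 46.5 bp from a start. Shares at equal distance or equal CpG content were not tested.

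**Figure D4:**
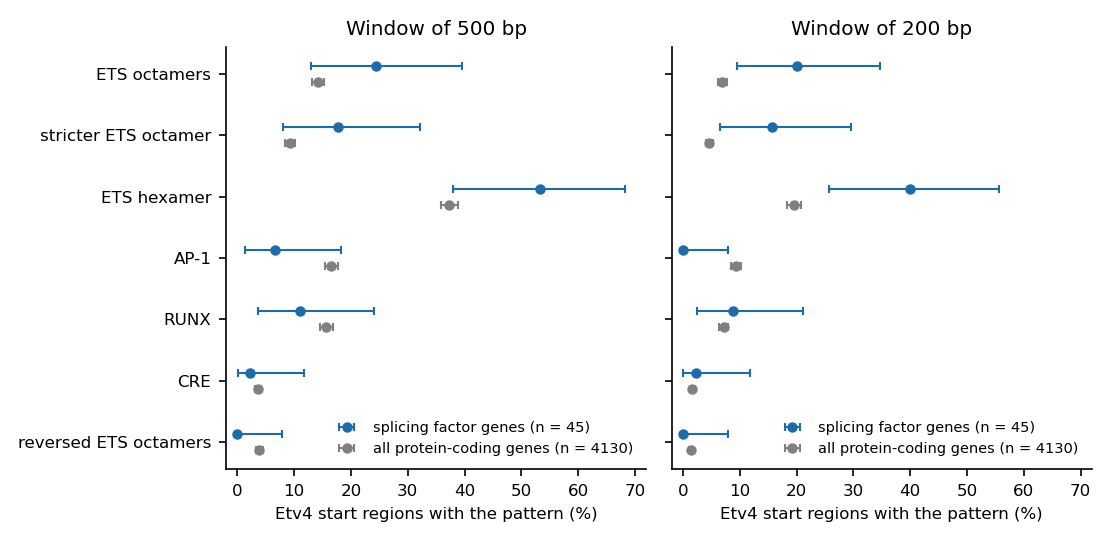
Points give the percent of Etv4 start regions that hold each pattern in 500 bp (left) or 200 bp (right) around the midpoint, in blue for the 45 regions of splicing factor genes and in grey for all 4130, with exact 95% intervals. The ETS octamers were at 24.4% against 14.2% and at 20% against 6.85%, and AP-1 at 6.67% against 16.5% in the wider window.

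Octamers were also counted by place in the list. Of the 10 lowest-numbered Etv4 start regions, only that of Sf3b2 held an octamer, and of the 16 regions in the first part of the list, up to 50% of its length, 2 did (12.5%, interval 1.55 to 38.3). In the last part 9 of 29 regions did (31%, interval 15.3 to 50.8). Over all Etv4 start regions the values were 13.8% and 14.5%. As an example of starts with both factors but no octamer, the stretches upstream of Srsf3 and Hnrnpab are printed from RefSeq (GRCm38.p6) on the strand of the gene, with each GGAA in capitals. Both printed stretches hold this core a single time and no TTCC, but the hexamer CGGAAG lay just upstream of the Srsf3 window, at chr17:29032396-29032401, inside both its Etv4 region and its overlapping Etv5 region.
Hnrnpab, chr11:51606882-51607131, minus strand: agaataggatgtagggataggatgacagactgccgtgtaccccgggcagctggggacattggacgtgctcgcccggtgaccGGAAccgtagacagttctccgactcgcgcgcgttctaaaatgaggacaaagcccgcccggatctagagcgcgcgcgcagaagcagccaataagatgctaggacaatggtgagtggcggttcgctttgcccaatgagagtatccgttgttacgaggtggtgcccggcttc
Srsf3, chr17:29032410-29032619, plus strand: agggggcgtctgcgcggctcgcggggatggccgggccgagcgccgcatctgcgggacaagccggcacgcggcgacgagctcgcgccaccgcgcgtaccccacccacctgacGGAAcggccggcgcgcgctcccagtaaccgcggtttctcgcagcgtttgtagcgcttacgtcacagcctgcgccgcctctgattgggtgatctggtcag

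The octamer was also present at starts without an Etv4 region. RefSeq promoter windows, from 250 bases before to 50 after a start, were matched for 59 of the 68 genes. Genes without a matched window included Hnrnpll, Hnrnpul2, Prpf18, Sf3b4, Sf3b5, Snrpb, Snrpd1 and U2af2. An ETS octamer was found in the windows of 12 of these 59 genes (20.3%, interval 11 to 32.8), beside 9.60% of all 16539 protein-coding genes with a window and 12.5% of those with CpG-rich windows. Among genes with an Etv4 start region 7 of 34 had it (20.6%, interval 8.70 to 37.9). In Hnrnpf, 1 of these 7, the octamer lay near the outermost start, at chr6:117900290-117900297. Its Etv4 region lay beside an internal start, 17344 bp downstream of that outermost start. Among genes without an Etv4 start region 5 of 25 had the octamer (20%, interval 6.83 to 40.7). Those 5, shown for comparison with the sequences above, were Srsf4, Srsf11, Hnrnpd, Prpf4b and Prpf6, and of these Hnrnpd had an Etv5 start region and Prpf6 the Etv5 body region given above.
Srsf4, chr4:131873415-131873444, plus strand: cccgcgcaggcACTTCCGGgggaagtgccg
Srsf11, chr3:158031773-158031802, minus strand: actggacgcgtACTTCCGGgatatgggcgc
Hnrnpd, chr5:99979099-99979128, minus strand: ttgcgcacgccACTTCCGGtcctctttaaa
Prpf4b, chr13:34875447-34875476, plus strand: gccccctagccCCGGAAGTtacgttccgcg
Prpf6, chr2:181601328-181601357, plus strand: cccagctctctACTTCCGGtgcgcgggtga

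Promoter windows of splicing factor genes were rich in CpG: 57 of 59 genes (96.6%) had a ratio of observed to predicted CpG of 0.6 or more, against 52.5% of all genes. Within this CpG-rich class, Etv4 was found at 34 of 57 splicing factor genes (59.6%), against 28.7% of all genes in the class, and Etv5 at 17.5% against 16.8%. Splicing factor genes also had more annotated starts, with a median of 5.50 against 3. Etv4 was found at 56.2% of the 32 genes with 5 to 9 starts, against 26.3% of all genes with that number. With 1, 2 to 4 and 10 or more starts it was found at 50.0% each, against 8.79%, 14.5% and 31.8%. Etv5 was found at 9.38% with 5 to 9 starts, against 15.3%. With 1, 2 to 4 and 10 or more starts the Etv5 values were 25.0%, 22.2% and 28.6%, against 4.94%, 8.46% and 20.7%. The 2 genes with a lower CpG ratio, Snrpa1 and Snrpn, had no start region, beside 7.45% of all genes in that class with Etv4 and 4.73% with Etv5.

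A start on the opposite strand within 1 kb was annotated for 24 splicing factor genes (35.3%, against 12.3% of all genes). With such a divergent start, Etv4 was found at 58.3% of splicing factor genes, against 36.4% of all genes, and without it at 50.0%, against 15.3%. For Etv5 the values were 20.8% against 20.9% with a divergent start, and 15.9% against 9.13% without.

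**Figure D5:**
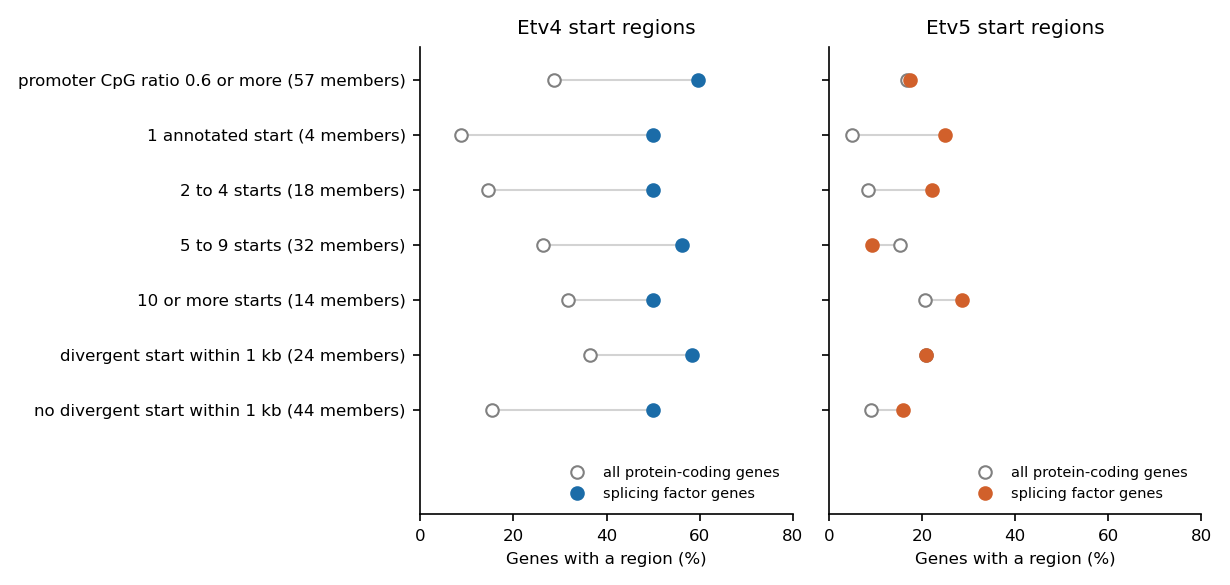
Filled points give the percent of splicing factor genes with an Etv4 (left) or Etv5 (right) start region in classes of promoter CpG, number of annotated starts and divergent starts, and open points give all protein-coding genes of the same class. In each of the 7 classes shown the Etv4 value of splicing factor genes was higher, at 50.0 to 59.6%, whereas the Etv5 values lay on both sides. The class of lower CpG ratio, with 2 members, is not shown.

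Splicing genes outside these name families were counted in the same way. Of 79 such genes, 39 had an Etv4 start region (49.4%, interval 37.9 to 60.9) and 16 an Etv5 start region (20.3%, interval 12 to 30.8), beside 17.9% and 10.6% of all genes. Among them were 8 of 9 genes grouped as helicases, with Ddx5 in both lists. The group names are loose, and further helicases were counted in other groups: Ddx23 (both factors), Snrnp200 and Eif4a3 (Etv4 alone) and Aqr (neither). Of 12 genes grouped as tissue regulators 9 had an Etv4 start region, with Esrp1, Ptbp1, Rbfox2 and Mbnl1 in both lists and Esrp2 with Etv4 alone. Esrp1 and Esrp2 are the epithelial splicing regulators. Of 14 Prp19 complex and step factors, 2, Cdc5l and Bud31, had an Etv4 start region (14.3%, interval 1.78 to 42.8), and both also had an Etv5 start region. An Etv4 start region was also found at 11 of 22 tri-snRNP and Sm-like genes, 7 of 15 SR-related and kinase genes, 1 of 4 exon junction genes and 1 of 3 genes for the end of the intron. The subgroups are small, and differences between them were not tested. Cytosolic ribosomal protein genes had Etv4 at 67.4% (62 of 92) and Etv5 at 17.4%, and proteasome genes at 28.3% (13 of 46) and 6.52%. The interval of the splicing factor genes for Etv4 overlapped those of the ribosomal protein genes, 56.8 to 76.8, and of the proteasome genes, 16.0 to 43.5. Neither share, 67.4% or 28.3%, lay inside the interval of the splicing factor genes, 40.4 to 65.2. Differences between these classes were not tested.

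The labelled cell type could be checked only by the presence of regions. Of 7 epithelial markers, 5 had an Etv4 start region and 3 an Etv5 start region, among them Krt8, Cldn4 and Esrp1 in both lists, whereas Cdh1 and Epcam had no start region. Of 6 markers of other tissues none had a start region in either list. With 17.9% and 10.6% of all genes having an Etv4 or Etv5 start region, a count of 0 of 6 says little about the cell type.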

How the data were processed

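The deposited data were 2 region lists, 1 per antibody. According to the study's methods, regions were called in each library with the one-sample mode of CisGenome (window 300 bp, p threshold 0.1), and the accessibility methods, to which the ChIP-seq methods refer, describe reads trimmed to 36 bp and mapped with bowtie2. The submitters' processing notes name Bowtie and mm10. Per the deposited files, each list is a BED table of 6 columns, with positions in base pairs, a region number whose criterion is not given in the sources used here, and a score of 1000 for every region. The score was not used. No input library was used, so copy number, mappability and open chromatin are not removed, and 15 cycles of PCR preceded sequencing. Samples were grouped by the antibody in the labels.

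Genes and starts came from GENCODE M21 (nuclear protein-coding genes), sequences from GRCm38 and RefSeq GRCm38.p6. Multicopy shares counted 36-base sequences occurring more than once in the assembly. The searches recovered all 200 planted regions and all 200 planted octamers on simulated data. Python 3.11.15, numpy 2.4.6, scipy 1.17.1, pandas 2.3.3 and matplotlib 3.10.9 were used. No test was run, as each antibody had 1 library. Shares are set beside those of all genes. The members, the list of other splicing genes, the compared classes and the markers were chosen with earlier results of these data known. Named were genes with both factors or an Etv5 start region, the 10 lowest-numbered start regions per list, genes with an octamer or a body region, and genes without a start region. Genes named beyond this were chosen after their values were seen. They were the remaining genes with Etv4 alone, the 5 genes with a promoter octamer but no Etv4 start region, and genes outside the families. Results for 1 member on its own are not reported here, although the counts include it. Of the listed splicing genes, Nhp2l1 did not match the annotation. Alternatives varied the start distance, the annotation of starts, the list length, multicopy regions, chromosomes, overlap and pattern.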

Additional observations from a re-analysis of the deposited data

How the results depend on the processing

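Of 62 planned recomputations 49 stayed and 13 moved, and of 5 added after seeing the data 2 moved, where a share moved if it left the interval of the reported share and the number of genes with an overlapping pair if it changed by over 1.5 times. These counts, and the 12 and 11 alternatives below, include the Etv5 shares with only the Etv4 list cut, which could not change. The start shares of splicing factor genes were above those of all protein-coding genes under all 12 alternatives, at 22.1 to 57.4% for Etv4, 5.88 to 20.6% for Etv5 and 4.41 to 14.7% for both, and body shares were below under all 11. Most shares fell where the lists were shortened, whereas the share with both factors remained 10.3% with the Etv4 list cut to the size of the Etv5 list (all genes 4.63% by length and 4.70% by region number). With the longer 50% of each list, Etv4 start regions were found at 26.5% of the genes (all genes 8.81%), Etv5 start regions at 5.88% (4.55%), Etv4 body regions at 1.47% and Etv5 body regions at 0%. With the first 50% by region number the values were 22.1% (8.74%), 5.88% (4.90%), 1.47% (6.09%) and 0% (4.33%). With the Etv4 list cut to the size of the Etv5 list, Etv4 start regions were found at 32.4% by length (all genes 10.8%). By region number, an alternative added after seeing the data, they were found at 30.9% (11%), with Etv4 body regions then at 1.47% (6.97%). With overlap of 50% of both regions, 3 genes had a pair. With CGGAAG as the pattern, 53.3% of Etv4 and 40.0% of Etv5 start regions of splicing factor genes held it (all start regions 37.3% and 29.5%). With CCGGAAGT alone no Etv5 start region of splicing factor genes did (0%, all Etv5 start regions 5.99%). No paired analysis was possible because 1 library represents each antibody. Depth and region strength are unknown, region lengths are uncertain by 1 bp, and absence from a list does not show absence of binding.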

Other observations

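Counts of splicing factor genes with an Etv4 start region differed between chromosomes, and the chromosomes named here were picked after counting. On chromosome 11 all 6 genes had one (Srsf1, Srsf2, Hnrnpab, Hnrnph1, Sf3a1 and Prpf8), beside 26% of all protein-coding genes on it. All 3 genes on chromosome 1 (Hnrnpu, Sf3b1 and Snrpe) and all 3 on chromosome 19 (Hnrnpul2, Sf3b2 and Prpf19) had one, beside 25.2% and 30.7%. On chromosome 2 none of 7 genes had one, beside 16.1%. On chromosome 7 Etv4 was found at 3 of 9 genes (Hnrnpl, Hnrnpul1 and Snrpa), beside 11.3%. Several other chromosomes lay between these extremes, such as 17 (4 of 6 genes, beside 23.8%), 10 (3 of 5, beside 16.2%) and 4 (3 of 7, beside 19.5%). The counts per chromosome are small and were not tested.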
